A study of Mus musculus with 15 samples.

Results

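Glutathione S-transferases (GST), UDP-glycosyltransferases (UGT) and sulfotransferases (SULT) are the enzymes with which the liver couples drugs, hormones, bile pigment and lipids to a water-soluble group. The genes were taken by symbol: Gst of the alpha, kappa, mu, omega, pi, theta and zeta classes, Mgst, Ugt1, Ugt2, Ugt3 and Ugt8, and Sult1 to Sult6. The table of 19464 genes held 62 of them, of which 24 were GST, 21 were UGT and 17 were SULT genes. No measured value was used to choose them.

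The data were read counts from RNA-seq of dissected livers of mice that lack Clever-1 (Stab1-/-) and of wildtype mice. Clever-1, also called Stabilin-1, is a scavenger receptor of endothelial cells and macrophages, and Stab1 encodes it. Livers were taken at 2 weeks of age (4 Stab1-/- and 4 wildtype libraries) and before birth at E17.5 of embryonic development (3 Stab1-/- and 4 wildtype libraries). All 4 groups were labelled with the same mixed C57BL/6N;129SvJ background, and none was treated. The label does not say which strain's alleles each mouse carried. The comparisons ask how the loss of Clever-1 and age each bear on gene expression in the liver. The gene was deleted in every cell type rather than in one, and RNA came from whole liver, so fewer cells of a type and less RNA per cell cannot be told apart. Neither the sex of the mice nor whether wildtype mice were littermates was given.

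The 3 families differ in what they attach. GSTs join substrates to glutathione or use it to reduce peroxides and isomerise metabolites, UGTs transfer a sugar, mostly glucuronic acid from UDP-glucuronate, and SULTs transfer sulfonate from the donor PAPS. Hepatocytes hold most of this capacity in the liver, and the capacity for glucuronidation is low before birth and grows afterwards, which is why newborns clear bilirubin slowly.

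Each library held 9659 to 10964 reads on genes in units of 1000 reads. Stab1 stood at 1.09 ± 0.310 RPKM (reads scaled to gene length and library total; SD, n = 4) in Stab1-/- and 9.29 ± 1.54 (n = 4) in wildtype libraries at 2 weeks, and at 4.37 ± 0.817 (n = 3) and 17.2 ± 3.17 (n = 4) at E17.5, with no overlap at either age. Exact two-sided permutation tests gave p = 0.0286 at 2 weeks and p = 0.0571 at E17.5, the smallest that these group sizes allow. One E17.5 Stab1-/- library (replicate 1) carried intestinal transcripts, with the intestinal marker Vil1 at 28.9 RPKM against 0.685 to 2.84 in the other E17.5 libraries, and one E17.5 wildtype library (replicate 2) carried the pancreatic transcript Cpa1 at 136 RPKM. Reads of Y-linked genes were 0 to 2 in each 2-week library, and at E17.5 they were 13 to 1425 in the Stab1-/- and 697 to 2448 in the wildtype libraries. All 15 libraries had over 10 reads of Xist, the RNA of the inactive X chromosome, so each E17.5 library held reads of both Xist and Y-linked genes. Sex and age cannot be told apart, and the part of sex in the genotype comparison at E17.5 was not tested.

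The promoters of the 5 genes that differed by genotype at 2 weeks are shown first, together with that of Sult2a5, whose promoter was the closest to that of Sult2a3 among the 4 Sult2a promoters at hand (Sult2a3, Sult2a4, Sult2a5 and Sult2a6). They run from 250 bases before to 50 bases after the transcription start, come from RefSeq on GRCm38.p6, and are written 5′ to 3′ on the strand of the gene. They are shown so that the likeness among the Sult2a promoters can be read beside the Gstm pair. No base is in capitals, since the 3 response elements named after the sequences had no match in these 6 windows. The windows were chr7:14122999-14123298 (minus strand) for Sult2a3, chr7:14254821-14255120 (minus) for Sult2a6, chr7:13623717-13624016 (plus) for Sult2a5, chr3:107986371-107986670 (minus) for Gstm2, chr3:107969125-107969424 (minus) for Gstm3 and chr1:88211709-88212008 (plus) for Ugt1a1.
Sult2a3: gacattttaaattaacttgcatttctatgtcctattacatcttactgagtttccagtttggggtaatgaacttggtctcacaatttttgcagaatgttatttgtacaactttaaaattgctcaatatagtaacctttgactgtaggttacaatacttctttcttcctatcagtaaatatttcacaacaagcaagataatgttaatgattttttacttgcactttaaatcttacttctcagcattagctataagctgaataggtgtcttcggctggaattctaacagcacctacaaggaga
Sult2a6: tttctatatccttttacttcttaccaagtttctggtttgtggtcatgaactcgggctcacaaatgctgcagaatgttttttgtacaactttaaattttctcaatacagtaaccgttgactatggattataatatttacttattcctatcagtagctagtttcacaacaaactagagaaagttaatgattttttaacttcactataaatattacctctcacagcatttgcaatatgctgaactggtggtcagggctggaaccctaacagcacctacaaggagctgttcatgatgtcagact
Sult2a5: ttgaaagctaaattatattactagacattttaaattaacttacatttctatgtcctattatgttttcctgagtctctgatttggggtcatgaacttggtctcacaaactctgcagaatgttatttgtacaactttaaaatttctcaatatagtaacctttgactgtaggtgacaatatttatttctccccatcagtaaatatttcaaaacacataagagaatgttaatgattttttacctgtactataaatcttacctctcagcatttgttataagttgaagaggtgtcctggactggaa
Gstm2: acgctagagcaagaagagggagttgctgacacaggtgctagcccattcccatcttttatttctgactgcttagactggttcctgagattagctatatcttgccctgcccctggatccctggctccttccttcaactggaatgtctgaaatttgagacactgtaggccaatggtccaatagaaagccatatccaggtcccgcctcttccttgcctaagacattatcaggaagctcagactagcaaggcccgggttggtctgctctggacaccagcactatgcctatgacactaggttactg
Gstm3: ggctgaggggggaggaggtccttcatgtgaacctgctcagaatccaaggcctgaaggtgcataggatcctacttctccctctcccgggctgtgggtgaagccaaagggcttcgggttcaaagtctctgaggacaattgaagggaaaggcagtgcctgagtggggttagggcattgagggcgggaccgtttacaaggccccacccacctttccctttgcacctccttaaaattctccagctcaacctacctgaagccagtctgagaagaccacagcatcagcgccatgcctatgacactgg
Ugt1a1: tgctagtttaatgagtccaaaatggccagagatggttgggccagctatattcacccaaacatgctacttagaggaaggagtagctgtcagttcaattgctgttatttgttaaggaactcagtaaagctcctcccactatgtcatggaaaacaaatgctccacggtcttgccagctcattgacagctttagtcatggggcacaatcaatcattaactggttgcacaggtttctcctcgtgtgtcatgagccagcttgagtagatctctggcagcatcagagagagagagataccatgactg
The Sult2a promoters resembled each other more than the Gstm promoters did. When windows of 300 bases were aligned end to end with gaps allowed, 242 bases of Sult2a3 were identical to those of Sult2a5 and 227 to those of Sult2a6, whereas 168 were identical between Gstm2 and Gstm3. Over all pairs the count was 202 to 242 among the 4 Sult2a promoters and 148 to 190 among the 7 Gstm promoters.

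A promoter of this kind was at hand for 54 of the 62 genes. The core antioxidant response element bound by NRF2 (TGACNNNGC) was found in 4 of 54 (7.41%) against 14.0% of the 27025 genes with a promoter, and the core xenobiotic response element bound by AHR (GCGTG) in 11 of 54 (20.4%) against 35.2%. The nuclear receptor element AGGTCA, which was searched after the values had been seen, was found in 11 of 54 (20.4%) against 18.1%. Both strands were searched throughout.

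At 2 weeks, the conjugating enzymes made up 1.09% to 1.48% of the reads of each Stab1-/- library and 0.665% to 1.01% of each wildtype library. At E17.5 the shares were 0.250% to 0.260% and 0.255% to 0.301%. The 3 families are described below by the sum of RPKM over their genes, a per-length level, without a test.

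The 24 GST genes together stood at 4766, 4114, 4008 and 4170.0 RPKM in the 2-week Stab1-/- libraries and at 3772, 3948, 3179 and 2809 RPKM in the wildtype libraries. UGT genes summed to 1872, 1297, 1374 and 1244 RPKM in Stab1-/- and 1139, 1201, 819.9 and 713 RPKM in wildtype libraries. For the SULT genes the sums were 3926, 2551, 2796 and 2648 RPKM against 2198, 2092, 1491 and 1236 RPKM. In all 3 families each Stab1-/- library lay above each wildtype library, by 1.24 times in the mean for GST, 1.49 times for UGT and 1.70 times for SULT. With libraries scaled by TMM factors, which discount a few abundant transcripts, the GST groups overlapped (ratio 1.17), whereas UGT (1.41) and SULT (1.60) did not. The subfamilies with the largest ratios were Sult2 (1.85 times), Ugt2 (1.60 times) and Mgst (1.43 times). Sult1 (1.33), Gsta (1.22), Ugt3 with Ugt8 (1.22) and the kappa, omega and zeta classes (1.19) were higher too. Ugt1 stood at 0.688, Gstt at 0.803, Sult3 to Sult6 at 0.921, Gstm at 0.965 and Gstp at 0.976 times the wildtype mean. Replicate 1 of the Stab1-/- group was the highest of the 8 libraries in 17 of 42 tested genes, against 29.5% of all genes, and replicate 4 of the wildtype group the lowest in 15 of 42, against 27.8%.

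At E17.5 the sums of the 2 genotypes overlapped in every family. GST genes summed to 1625, 1716 and 1522 RPKM in Stab1-/- and 1886, 1852, 1732 and 1597 RPKM in wildtype libraries, and UGT genes to 197, 177 and 216 against 232, 259, 181 and 209 RPKM. The SULT sums were 129, 118 and 121 RPKM in Stab1-/- against 140.0, 139, 126 and 109.7 RPKM in wildtype libraries. From E17.5 to 2 weeks, the mean sum of wildtype livers was 1.94 times as high for GST, 4.40 times for UGT and 13.7 times for SULT, and in Stab1-/- livers 2.63, 7.35 and 24.3 times.

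**Figure D1:**
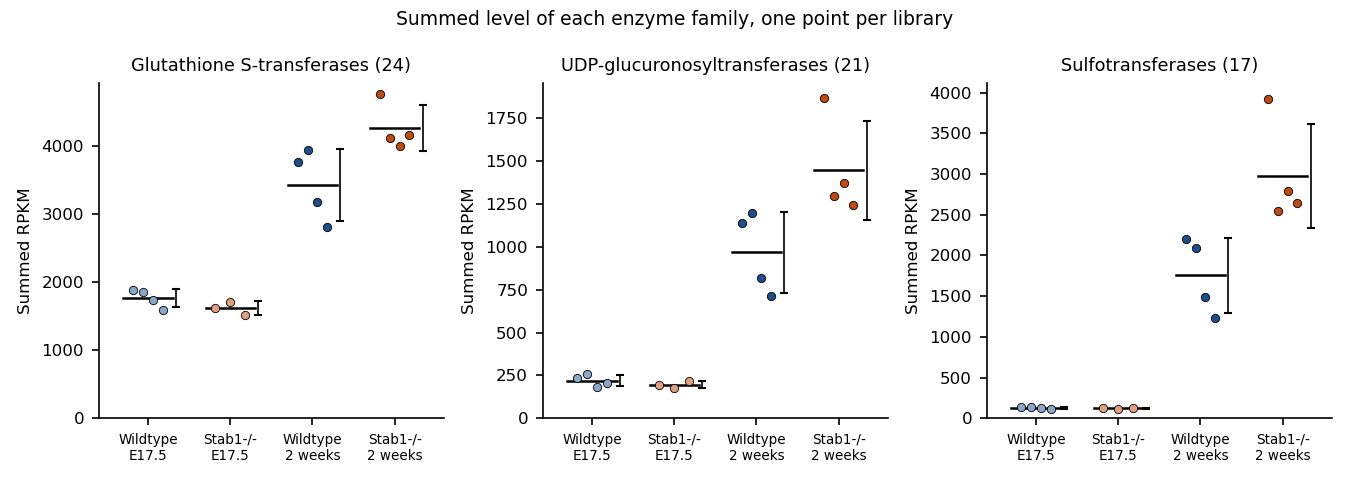
Summed RPKM of the GST, UGT and SULT genes in each of the 15 libraries, by genotype and age, with the group mean and SD. At 2 weeks the Stab1-/- libraries lie above the wildtype libraries in each family (SULT 2551 to 3926 against 1236 to 2198 RPKM), and at E17.5 the genotypes overlap.

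A few genes held most of this level. Mgst1, a membrane-bound transferase that also reduces lipid peroxides, led all 4 groups with 18.5% to 23.8% of the summed RPKM. Sult2a1, which sulfonates bile acids and steroids such as dehydroepiandrosterone, came next at 2 weeks with 19.5% in Stab1-/- and 13.8% in wildtype livers, and Gsta3, an alpha-class transferase, followed. At E17.5 the places after Mgst1 went to Gsta3, Gstm1, Mgst3 and Gstt1 in Stab1-/- livers. In wildtype livers the order was Gsta3, Gstt1, Mgst3 and Gstm1. Sult2a1 made up only 0.504% and 2.91% of the SULT level in Stab1-/- and wildtype livers at this age. The 6 leading genes together held 61.9% to 69.8% of the level in each group.

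**Figure D2:**
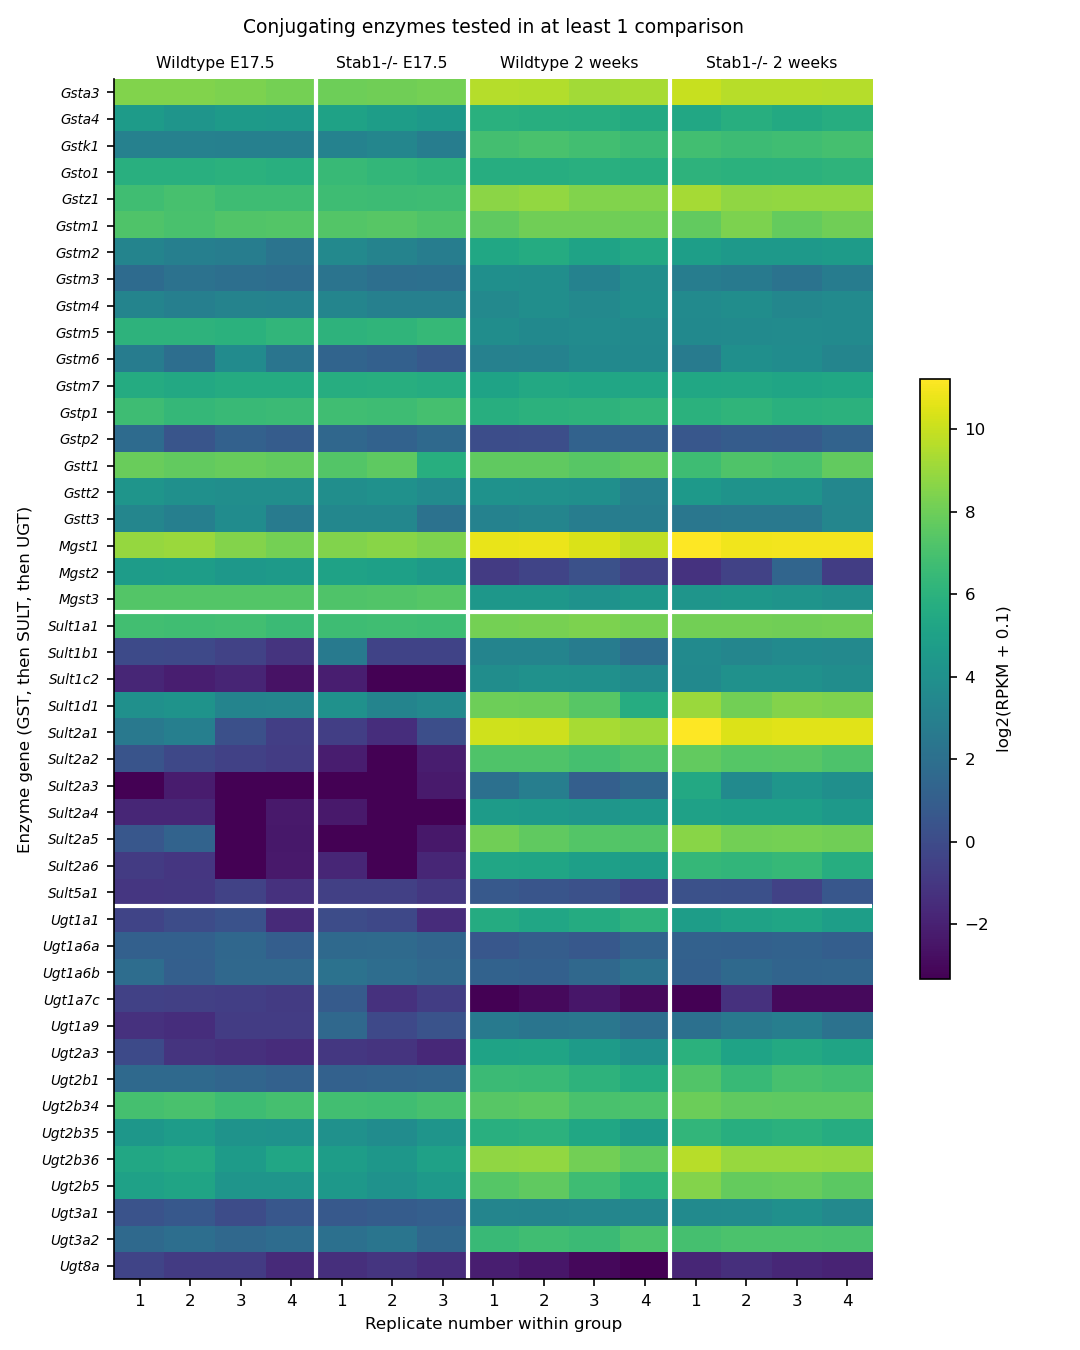
Level of each conjugating enzyme gene in the 15 libraries, as log2 of RPKM plus 0.1 with genes in rows and libraries in columns grouped by genotype and age. Most Sult2a, Ugt2 and Ugt3 genes are low in the E17.5 columns and high in the 2-week columns, and Mgst2, Mgst3 and Gstm5 show the opposite order.

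The genotype comparison at 2 weeks showed higher Sult2a3 and Sult2a6 and lower Gstm2, Gstm3 and Ugt1a1 in Stab1-/- livers. Of the 42 genes with enough reads to be tested, these 5 passed an adjusted p of 0.05 in edgeR's quasi-likelihood test with Benjamini-Hochberg adjustment over all genes, 2 higher and 3 lower. Over all 12716 genes tested, 2.67% passed (0.936% higher and 1.74% lower). By family, 2 of 11 SULT genes rose and none fell, 2 of 19 GST genes fell and none rose, and 1 of 12 UGT genes fell. The median log2 fold change (Stab1-/- over wildtype) of the 42 genes was 0.17, and that of all genes was -0.01. An unadjusted p under 0.05 was reached by 19 of the 42 and by 23.4% of all genes.

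Sult2a3, a hydroxysteroid sulfotransferase of the cluster on chromosome 7, had the highest fold difference of the 42 genes tested. It stood at 43.5, 12.6, 19.4 and 15.1 RPKM in the 4 Stab1-/- libraries and at 4.01, 7.40, 1.97 and 2.95 RPKM in the 4 wildtype libraries. Each Stab1-/- library lay above each wildtype library, and the lowest Stab1-/- value was 12.6 RPKM against a highest wildtype value of 7.40. Sult2a3 rose by 2.38 ± 0.42 on the log2 scale (SE; adjusted p = 0.0130, edgeR). The change was 1.88 to 2.81 when each library was left out in turn, with the adjusted p between 0.0109 and 0.0421 in edgeR.

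Sult2a6, its neighbour, was more even among libraries. Values were 82.7, 76.3, 84.1 and 52.6 RPKM in Stab1-/- and 38.6, 36.7, 29.9 and 26.9 RPKM in wildtype livers. The groups did not overlap, and Sult2a6 rose by 1.07 ± 0.14 on the log2 scale (adjusted p = 0.00342, edgeR).

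The most abundant member of the cluster missed the threshold. Sult2a1 stood at 2328, 1413, 1537 and 1512 RPKM in Stab1-/- and at 1134, 1096, 634 and 526 RPKM in wildtype libraries. Its groups did not overlap, and the log2 difference was 0.92 ± 0.23 with an adjusted p of 0.0525 in edgeR. Under 16 other settings its adjusted p ranged from 0.00247 to 0.158, and 7 of them passed, DESeq2 among these. Sult2a5 had 396, 273, 287 and 264 RPKM against 270.0, 206, 159.7 and 153 RPKM, with 1 wildtype library above the lowest Stab1-/- library. The log2 difference of Sult2a5 was 0.54 ± 0.17 (adjusted p = 0.0933, edgeR). All 6 tested Sult2a genes had a log2 difference above 0, the smallest in Sult2a2 (0.21) and Sult2a4 (0.24), and this held under each scaling of the libraries.

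These 6 genes lie side by side between positions 13623967 and 14254870 of chromosome 7 in GRCm38 and are similar in sequence, so reads of one may be left out or counted to another. Of the 50-base stretches of their GENCODE transcripts, 8.36% of those of Sult2a3 and 7.35% of those of Sult2a6 occurred in another gene as well, against 33.2% for Sult2a1, 34.5% for Sult2a5 and 62.1% for Sult2a2. The share was 26.0% for Sult2a4, so the values of Sult2a1, Sult2a2, Sult2a4 and Sult2a5 are less certain than those of Sult2a3 and Sult2a6.

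**Figure D3:**
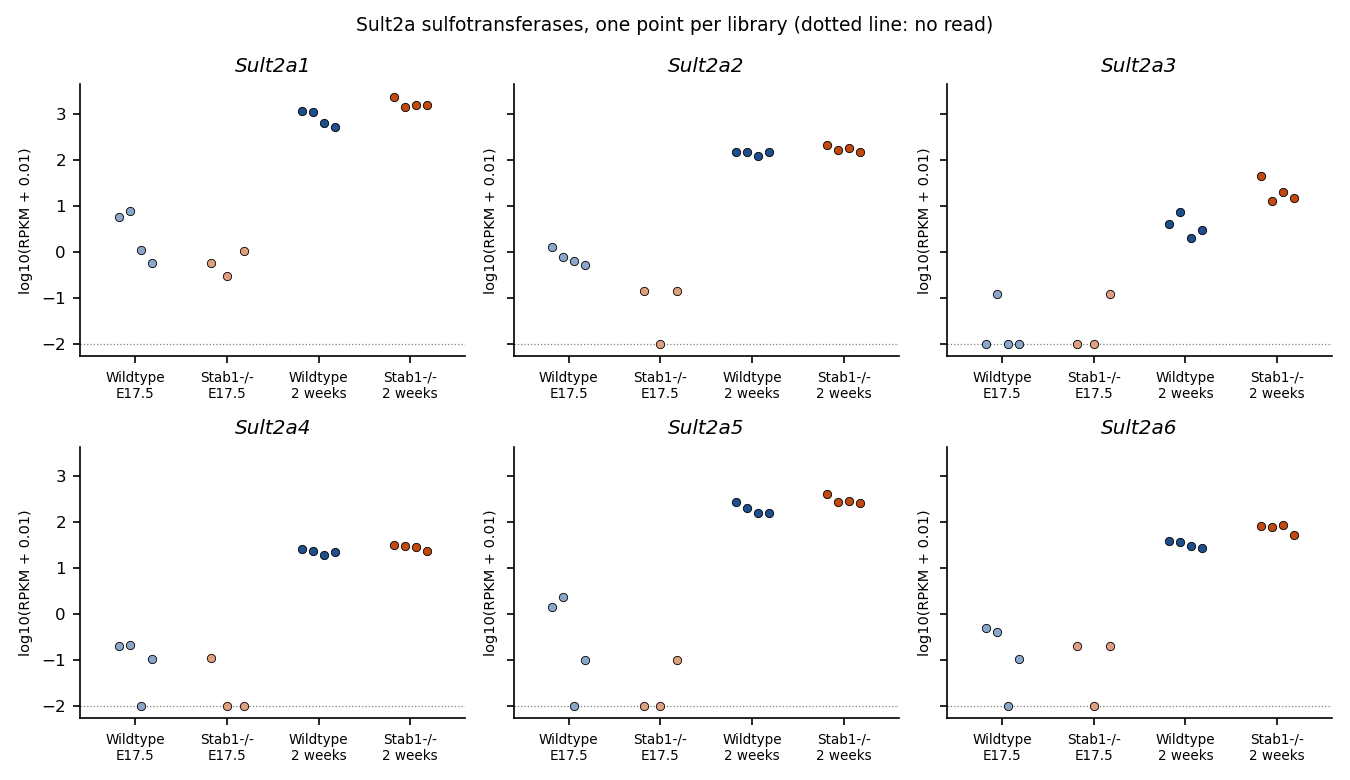
Level of Sult2a1 to Sult2a6 in each of the 15 libraries, as log10 of RPKM plus 0.01, by genotype and age, with a dotted line where no read was counted. At 2 weeks Sult2a1, Sult2a3 and Sult2a6 show no overlap between the genotypes, Sult2a2, Sult2a4 and Sult2a5 do, and all 6 lie lower at E17.5.

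Outside the cluster, no sulfotransferase tested by edgeR passed. Sult1d1, which sulfonates phenols and catecholamines, had 532, 278, 366 and 335 RPKM in Stab1-/- and 259, 244, 172 and 50.8 RPKM in wildtype libraries. These groups did not overlap, with wildtype replicate 4 well below its group, and the log2 difference of 0.98 ± 0.36 had an adjusted p of 0.141 (edgeR). Sult1a1, the main phenol sulfotransferase of the liver, went the other way with 274, 275, 267 and 275 RPKM against 294, 306, 332 and 289 RPKM (log2 difference -0.25, adjusted p = 0.146, edgeR). Sult1e1, which inactivates oestrogens, had 31, 8, 9 and 13 reads in Stab1-/- and 4, 5, 1 and 1 reads in wildtype libraries. Its mean RPKM was 5.74 times as high in Stab1-/- livers, and it fell below the filter on low counts, but DESeq2 and edgeR without that filter called it higher.

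Among the transferases of glutathione, the mu-class genes Gstm2 and Gstm3 were lower in Stab1-/- livers. Gstm2 stood at 27.9, 23.3, 22.3 and 25.2 RPKM in Stab1-/- and 40.8, 49.7, 33.8 and 44.0 RPKM in wildtype livers. Every Stab1-/- library lay below every wildtype library, and Gstm2 fell by 0.86 on the log2 scale (SE 0.12, adjusted p = 0.00537, edgeR). Gstm3 had 7.17, 6.21, 4.48 and 6.83 RPKM against 15.02, 14.7, 8.77 and 14.5 RPKM, again without overlap. Its log2 change was -1.19 ± 0.19 (adjusted p = 0.00968, edgeR), and 28.8% of its 50-base stretches also occurred in another gene or pseudogene.

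The remaining mu-class genes did not move with this pair. Gstm1, the most abundant of them, had 214, 328, 217 and 272 RPKM in Stab1-/- and 204, 264, 269 and 257 RPKM in wildtype livers, and its log2 difference of -0.03 had a 95% interval from -0.35 to 0.28. Of the 7 mu-class genes, 6 had a log2 difference below 0 with TMM factors and 4 with library totals, and only Gstm2 and Gstm3 passed. Mgst1 stood at 2377, 1948, 1965 and 1992 RPKM in Stab1-/- and 1722, 1778, 1340.4 and 917 RPKM in wildtype libraries. These groups did not overlap, and the difference of 0.44 ± 0.17 on the log2 scale had an adjusted p of 0.147 (edgeR). Gsta3 (1024, 796, 812 and 777 against 767, 741, 594 and 645 RPKM) and Gsto1 (66.6, 61.8, 65.1 and 69.8 against 52.8, 52.2, 56.4 and 56.0 RPKM) were likewise higher in RPKM in every Stab1-/- library without passing. Overlap of single genes was judged on RPKM, which are not scaled by TMM factors. At 2 weeks these factors were 0.976 to 1.07 in Stab1-/- and 0.935 to 1.01 in wildtype libraries, so a narrow gap such as that of Gsto1 can close. Gsto1 encodes an omega-class enzyme that acts as a thiol transferase. Gstz1, which isomerises maleylacetoacetate in tyrosine breakdown, and the theta-class Gstt1 overlapped between the genotypes.

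Ugt1a1, the enzyme that glucuronidates bilirubin, was lower in Stab1-/- livers at 2 weeks. It stood at 26.9, 32.6, 37.7 and 27.7 RPKM in Stab1-/- and 48.6, 38.8, 48.9 and 66.7 RPKM in wildtype livers. The groups did not overlap, though 37.7 and 38.8 RPKM lay next to each other, and Ugt1a1 fell by 0.80 on the log2 scale (SE 0.17, adjusted p = 0.0328, edgeR). The call was lost in 5 of the 8 fits that left out 1 library (Stab1-/- replicates 1, 2 and 4 and wildtype replicates 3 and 4), where the adjusted p rose to 0.108 at most, and also with library totals and in a fit of all 15 libraries. Ugt1a genes splice different first exons to the same last exons, and 58.2% of the 50-base stretches of Ugt1a1 also occurred in another gene, so its count may hold reads of its neighbours or lack reads that were not unique.

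The Ugt2 genes, which glucuronidate steroids and drugs, lay the other way. All 6 tested had a positive log2 difference under each scaling, from 0.31 to 0.82, and none passed. When the fit also included the replicate number, Ugt2a3, Ugt2b36 and Ugt2b5 passed. Ugt2b36, the most abundant UGT, had 798, 504, 510.1 and 483 RPKM in Stab1-/- and 450.1, 455, 281 and 197 RPKM in wildtype livers, without overlap (log2 0.64 ± 0.23, adjusted p = 0.130, edgeR). Ugt2b5 had 363, 222, 227 and 188 RPKM against 166, 201, 105 and 61.6 RPKM, with the lowest Stab1-/- library inside the wildtype range. Ugt3a2, which uses other sugars than glucuronic acid, stood at 122, 135, 139.6 and 131 RPKM against 93.1, 106, 97.3 and 138 RPKM, and the groups overlapped.

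Over all members, 11 of the 42 tested were higher in each Stab1-/- library than in any wildtype library and 4 were lower in each, against 10.4% and 4.5% of all genes. Sult2a3, Sult2a6, Gstm2 and Gstm3 passed in each of the 16 other settings tried, and Ugt1a1 in 9. Among markers of liver cells at 2 weeks, the hepatocyte list (7 genes tested, none past the threshold) summed to 58599.7 to 74422 RPKM in Stab1-/- and 74402 to 94669.9 RPKM in wildtype libraries. The granulocyte list (5 tested, none past the threshold) summed to 185 to 419 against 29.7 to 144 RPKM, and the stellate list, with 3 of 6 genes lower, to 229.8 to 240.3 against 239 to 288 RPKM. Over all genes, 1.74% were called lower. The part of these markers in the results above was not tested.

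**Figure D4:**
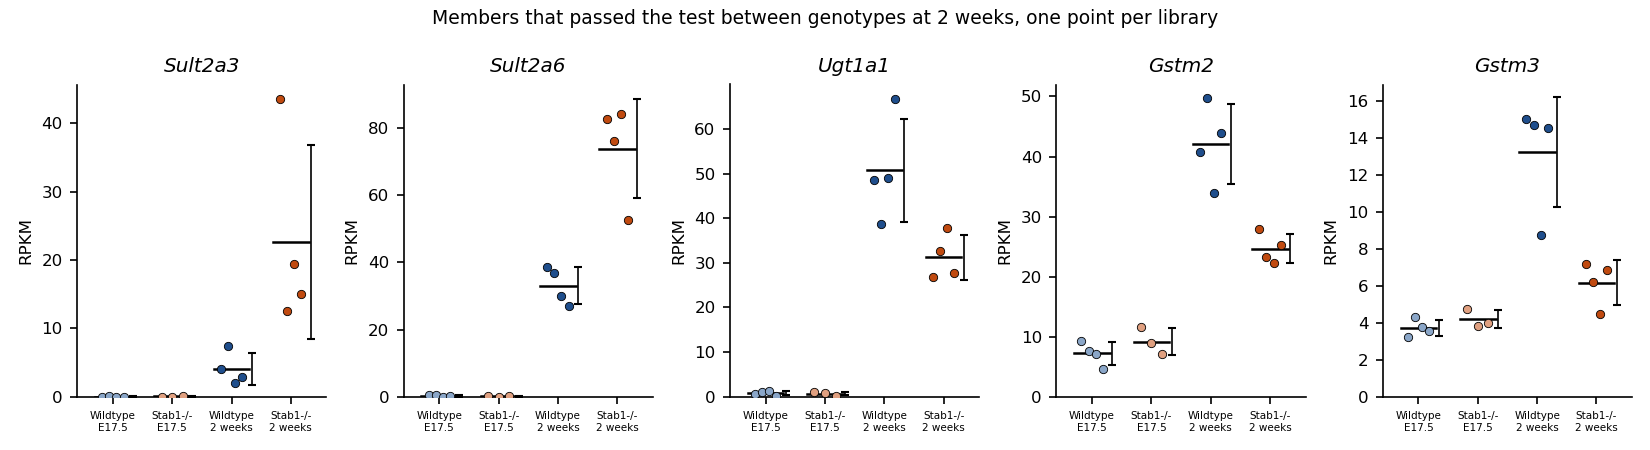
RPKM of Sult2a3, Sult2a6, Ugt1a1, Gstm2 and Gstm3 in each of the 15 libraries, by genotype and age, with group mean and SD. In each panel the 2-week Stab1-/- and wildtype libraries do not overlap, most narrowly for Ugt1a1 (37.7 against 38.8 RPKM).

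At E17.5 no conjugating enzyme passed. Of 37 genes tested, 0 were called by edgeR, against 0.366% of all 13388 genes, 11 had an unadjusted p under 0.05 (12.9% of all genes did), and DESeq2 called 3 (Gstm6, Gsto1 and Ugt1a9). The median log2 difference was 0.05, against 0.00 over all genes. The groups did not overlap for 4 genes that were higher and 4 that were lower in Stab1-/- livers, against 2.91% and 9.3% of all genes. Only 4 SULT genes had enough reads to be tested in fetal liver.

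Gsto1 came nearest. It stood at 89.5, 78.6 and 71.2 RPKM in Stab1-/- and 57.1, 57.3, 62.7 and 58.6 RPKM in wildtype livers, with no overlap. The log2 difference was 0.50 ± 0.09 (adjusted p = 0.0585, edgeR; 0.000368 to 0.284 under 16 other settings, of which 4 passed). Gstm6, a mu-class gene, had 2.47, 2.07 and 1.56 RPKM in Stab1-/- and 6.69, 3.65, 12.9 and 4.95 RPKM in wildtype libraries. Its groups did not overlap either, and the log2 difference of -1.74 ± 0.43 had an adjusted p of 0.156 (edgeR; 0.00967 to 0.346 under the other settings, of which 1 passed).

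Some differences at E17.5 came with the library that carried intestinal transcripts. Ugt1a9 had 2.93 RPKM in that library, 0.832 and 1.23 in the other Stab1-/- libraries and 0.318, 0.268, 0.511 and 0.494 RPKM in wildtype libraries. Its log2 difference was 2.10 ± 0.42 with an adjusted p of 0.0934, and 1.44 ± 0.31 with 0.153 without that library (edgeR). Sult1b1, a sulfotransferase of thyroid hormones, had 6.06 RPKM there and 0.359 to 0.856 RPKM in the other 6 libraries, and its log2 difference went from 1.92 ± 0.73 to 0.06 ± 0.37 without it. Ugt1a7c, with 1.73 RPKM there and 0.319 to 0.592 RPKM elsewhere, turned from 0.67 to -0.32. For Ugt1a9 and Ugt1a7c, 62.0% and 69.3% of the 50-base stretches also occurred in another gene.

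The Sult2a genes were barely read in fetal liver. Sult2a1 had 0.558, 0.281 and 1.02 RPKM in Stab1-/- and 5.73, 7.59, 1.07 and 0.549 RPKM in wildtype libraries, the higher wildtype values in replicates 1 and 2, and the genotypes overlapped. Sult2a2 had 1, 0 and 1 reads in Stab1-/- and 10, 6, 5 and 4 reads in wildtype libraries, a ratio of 0.109 (exact 95% counting interval 0.0125 to 0.436). Sult2a5 had 0, 0 and 1 reads against 16, 26, 0 and 1 reads, so that 2 wildtype libraries held nearly all of its reads. These intervals cover counting error only.

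A test of whether the genotype effect differed between the ages used all 15 libraries and shares them with the comparisons above. Of 45 genes tested, 3 were higher and 1 lower at E17.5 than at 2 weeks in this difference, and 1.81% of all 13885 genes passed. Gstm2 had 11.5, 8.87 and 7.15 RPKM in Stab1-/- and 9.28, 7.68, 7.16 and 4.67 RPKM in wildtype livers at E17.5, an overlap not seen at 2 weeks, and the difference of effects was 1.23 ± 0.26 on the log2 scale (adjusted p = 0.0310, edgeR). Gstm3 had 4.74, 3.82 and 4.002 against 3.25, 4.30, 3.79 and 3.58 RPKM at E17.5, with a difference of effects of 1.38 ± 0.27 (adjusted p = 0.0265, edgeR). For both, the genotypes overlapped before birth and were apart at 2 weeks.

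Ugt1a9 (2.02 ± 0.47, adjusted p = 0.0446, edgeR) and Sult2a2 (adjusted p = 0.0291, edgeR) were the others. Ugt1a9 overlapped between the genotypes at 2 weeks, with 4.10, 5.88, 7.44 and 4.41 against 6.30, 4.92, 5.24 and 3.53 RPKM. Sult2a2 stood at 211, 165, 176 and 144 against 149, 146, 119 and 148 RPKM at 2 weeks, and its effect at E17.5 rests on the few reads given above. None of the 4 passed once the E17.5 libraries with intestinal and pancreatic transcripts were both left out, where the adjusted p values were 0.123 for Gstm3, 0.153 for Sult2a2, 0.186 for Gstm2 and 0.279 for Ugt1a9 (edgeR). The difference of effects was then 1.39 ± 0.32 for Gstm3 and 1.10 ± 0.30 for Gstm2, and 1.24 ± 0.43 for Ugt1a9. Leaving out either of these libraries alone also left none. Of the other 13 libraries, leaving out 1 ended the call of Gstm2 in 5 fits (2-week Stab1-/- replicates 1, 2 and 3, 2-week wildtype replicate 4 and E17.5 Stab1-/- replicate 2), with an adjusted p of at most 0.0550 and a difference of 1.06 to 1.39 over all 13. Gstm3 was lost without E17.5 wildtype replicate 1 (adjusted p = 0.0568, edgeR), and Sult2a2 without that library or E17.5 Stab1-/- replicate 2 (at most 0.0649). Ugt1a9 was lost in 6 fits (2-week Stab1-/- replicates 1, 2 and 4, 2-week wildtype replicate 3 and E17.5 wildtype replicates 1 and 4), with an adjusted p of at most 0.0936.

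**Figure D5:**
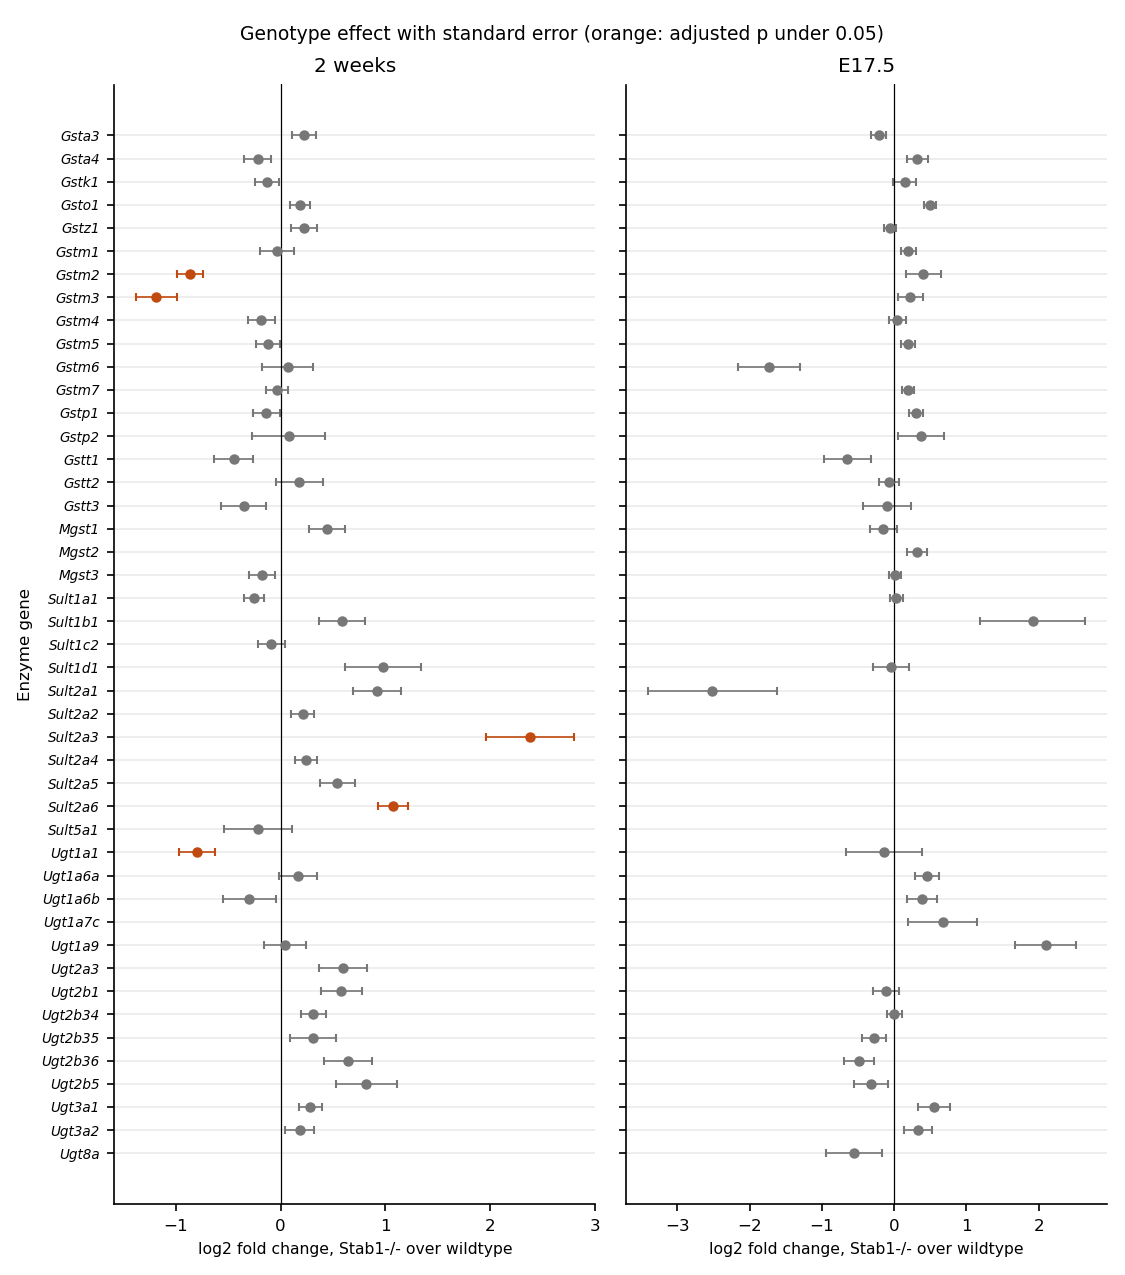
Log2 difference between Stab1-/- and wildtype livers (with SE) of the tested conjugating enzymes at 2 weeks and at E17.5, by gene. At 2 weeks Sult2a3 (2.38) and Gstm3 (-1.19) lie at opposite ends among the genes that passed, and at E17.5 no gene passed.

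More conjugating enzymes passed between the ages than between the genotypes. In wildtype livers 31 of 43 tested genes rose and 4 fell from E17.5 to 2 weeks, and in Stab1-/- livers 31 of 45 rose and 5 fell (edgeR, adjusted p under 0.05). Over all genes, 71.9% passed in wildtype livers (34.9% rose and 37% fell) and 72.5% in Stab1-/- livers (35.7% rose and 36.8% fell). The ages did not overlap for 28 genes that were higher and 8 that were lower at 2 weeks in wildtype livers, against 21.1% and 48% of all genes, and for 30 and 8 in Stab1-/- livers, against 28% and 44%. The median log2 change of the members was 2.15 in wildtype and 1.86 in Stab1-/- livers, and -0.01 over all genes in each. With library totals in place of TMM factors, the median of all genes moved by -0.36 in wildtype and -0.22 in Stab1-/- livers, and all changes below are relative to the TMM scale. The 2 age comparisons share no library: 30 genes rose in both, 4 fell in both and none went in opposite directions, of 43 tested in both.

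Every sulfotransferase tested rose with age, 10 of 10 in wildtype and 11 of 11 in Stab1-/- livers. Of these, 3 in wildtype and 6 in Stab1-/- livers had at most 3 reads in every E17.5 library. They entered the test through their 2-week reads alone, so the filter fixed the direction of their change. Further SULT genes had too few E17.5 reads for the filter's minimum count of 10. In wildtype livers Sult2a6 had 5, 4, 0 and 1 reads and Sult2a2 10, 6, 5 and 4. In Stab1-/- livers Sult2a1 had 6, 3 and 11 reads and Sult5a1 7, 7 and 5. Their 2-week reads brought them in too, so 10 of 10 and 11 of 11 owe much to the filter. Sult6b1, which the filter left out, went the other way in wildtype livers, with 21 reads at E17.5 and 5 at 2 weeks. Its ratio was 0.245 (exact 95% counting interval 0.0722 to 0.668), and 0.233 (0.0673 to 0.658) in Stab1-/- livers. Sult2a1 rose by 8.18 ± 0.60 on the log2 scale in wildtype livers and by 11.61 ± 0.34 in Stab1-/- livers. Sult2a5 went from 1.42, 2.38, 0 and 0.0894 RPKM to 153 to 270.0 RPKM in wildtype livers, a log2 change of 8.02 ± 0.50. In Stab1-/- livers, with 1 read over the 3 E17.5 libraries, Sult2a5 was 1.01e+04 times as high at 2 weeks, with an exact 95% counting interval from 1805 to 397370.3. Sult2a3 was 148 times as high in wildtype (26.2 to 5892) and 610 times as high in Stab1-/- livers (109.1 to 24113), both against 1 read at E17.5. Sult1c2, a sulfotransferase of phenols, stood at 0 to 0.190 RPKM at E17.5 and 11.7 to 16.4 RPKM at 2 weeks over both genotypes.

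Among the UGT genes, Ugt1a1 stood at 0.690, 0.948, 1.19 and 0.232 RPKM in wildtype and 0.942, 0.799 and 0.263 RPKM in Stab1-/- livers at E17.5. All of these lay far below the 26.9 to 66.7 RPKM at 2 weeks, and Ugt1a1 rose by 6.41 ± 0.32 in wildtype and 5.76 ± 0.28 in Stab1-/- livers on the log2 scale. All 6 tested Ugt2 genes rose in both genotypes, among them Ugt2a3 (6.27 ± 0.35 in wildtype, 7.27 ± 0.30 in Stab1-/-) and Ugt2b1 (5.17 ± 0.22 and 5.87 ± 0.21). Ugt2a3 had 20, 8, 7 and 6 reads in wildtype and 9, 8 and 5 in Stab1-/- livers at E17.5. It passed the filter through its 2-week reads. Ugt3a2 rose from 2.87 to 3.70 RPKM to 93.1 to 138 RPKM in wildtype livers, by 5.42 ± 0.17. Ugt1a7c fell, from 0.482 to 0.592 RPKM in wildtype fetal livers to at most 0.0857 RPKM, with 0, 1, 3 and 1 reads at 2 weeks. Ugt1a7c entered this test through its E17.5 reads alone, so the filter fixed the direction of its change. The ratio of its summed reads was 0.0660 (exact 95% counting interval 0.0208 to 0.161).

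The GST genes moved both ways. Mgst1 rose by 2.15 ± 0.22 and Gstz1 by 2.20 ± 0.11 in wildtype livers, from 291 to 515 and 105 to 124 RPKM at E17.5. Gsta3 rose by 1.42 ± 0.11, and Gstm1 by 1.11 ± 0.13. In contrast to Mgst1, the other 2 microsomal transferases, which can make leukotriene C in blood cells and other tissues, fell. Mgst2 went from 26.6, 26.8, 21.2 and 23.8 RPKM to 0.483, 0.680, 1.11 and 0.632 RPKM in wildtype livers, and Mgst3 from 161, 161, 162 and 162 to 20.3, 20.3, 17.2 and 20.5 RPKM. The log2 changes were -4.68 ± 0.23 and -2.68 ± 0.09, and -4.60 ± 0.39 and -2.86 ± 0.11 in Stab1-/- livers. With 3, 4, 7 and 4 reads at 2 weeks in wildtype livers, Mgst2 passed the filter through its E17.5 reads. Gstm5, with 63.3 to 74.6 RPKM at E17.5 and 11.8 to 13.7 RPKM at 2 weeks in wildtype livers, fell by 2.08 on the log2 scale.

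Gstp1, the pi-class transferase, stood at 80.8 to 103 RPKM in fetal and 54.3 to 76.6 RPKM in 2-week wildtype livers. It passed in Stab1-/- livers only (log2 -0.54 ± 0.11, against -0.12 ± 0.13 in wildtype livers), and the difference between the genotypes did not pass (adjusted p = 0.189, edgeR). Gsto1, called higher in wildtype livers (log2 0.25), had lower RPKM in each 2-week than in each E17.5 wildtype library and turned to -0.12 with library totals. Erythroid markers summed to 16743 to 22277 RPKM at E17.5 and 339 to 1305 RPKM at 2 weeks, with all 6 tested lower at 2 weeks in both genotypes, while 6 of 7 hepatocyte markers rose in wildtype and 5 of 7 in Stab1-/- livers. Over all genes, 37% fell in wildtype and 36.8% in Stab1-/- livers, and 34.9% and 35.7% rose. What these cells contribute to the changes with age was not tested.

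No gene that supplies the donors passed by genotype at either age. At 2 weeks 0 of 10 glutathione, 6 UDP-glucuronate and 7 PAPS supply genes tested were called by edgeR, against 2.67% of all genes. At E17.5 the share of all genes was 0.366%. Beside such shares, 0 calls among so few genes say little about the supply of donors. Among 12 transporters of conjugates, Slco1a4, an uptake carrier of bile acids and steroid conjugates, rose with 84.4, 73.5, 90.6 and 73.8 RPKM in Stab1-/- against 47.4, 52.1, 35.3 and 49.98 RPKM in wildtype livers (log2 0.71 ± 0.12, adjusted p = 0.0120, edgeR). These groups were well apart. Abcg2, which exports sulfated and glucuronidated compounds, fell by 0.63 on the log2 scale (adjusted p = 0.0400, edgeR).

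Of 14 regulators of these genes, Bcl6 alone passed at 2 weeks. Bcl6 encodes a transcriptional repressor and had 11.1, 14.9, 3.95 and 3.92 RPKM in Stab1-/- against 1.92, 1.82, 1.47 and 1.66 RPKM in wildtype livers (log2 2.20 ± 0.39, adjusted p = 0.0144, edgeR). Its Stab1-/- values fell into a higher and a lower pair, both above all wildtype libraries. Nfe2l2 (log2 -0.11), Ahr (0.24), Nr1i2 (-0.22), Nr1i3 (-0.28) and Hnf4a (-0.04) did not pass, nor did any of 9 NRF2 and 3 AHR target genes outside the families. Over all genes 2.67% passed at this age, so 0 calls in lists this short say little. The median log2 difference was -0.31 for the NRF2 and 0.02 for the AHR targets, and -0.01 over all genes. Summed over the list, NRF2 targets stood at 213 to 265.5 RPKM in Stab1-/- and 264.6 to 308 RPKM in wildtype libraries at 2 weeks. No test was run on these sums. With age, 12 of the 14 regulators rose in wildtype livers, against 34.9% of all genes. Nr1i3 (4.46 ± 0.20) and Esr1 (3.46 ± 0.14) were among these regulators. At E17.5 none of the genes of these lists passed by genotype, against 0.366% of all genes.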

How the data were processed

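RNA-seq was measured in 15 liver libraries of 4 groups. The authors deposited 1 table with uniquely mapped read counts per gene, RPKM values per gene and the percent of each gene model covered by reads. The deposited RPKM were recomputed from the counts and listed lengths to within 7.66e-12 percent. The deposited coverage percent was not used. The aligner, counting program, genome build and use of strand are not given in the sources used here. Library totals were 9659 to 10964 in units of 1000 reads, and 222 of 19464 genes had no read.

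Counts were tested over the whole table with edgeR 4.0.16 (R 4.3.3, limma 3.58.1): TMM factors, filterByExpr (minimum count 10, minimum total 15), glmQLFit and glmQLFTest, two-sided, with Benjamini-Hochberg adjustment and a threshold of 0.05. Only the libraries of a comparison entered its fit, and all 15 entered the test of the difference between ages. DESeq2 1.42.0, other scalings, no filter, GC-content offsets, the replicate number as a block and leaving out libraries were alternatives. The scripts were tested on simulated data. Genes with at most 3 reads in every library of a group are given as ratios of summed reads with exact 95% intervals, and 4 against 4 libraries allow no permutation p below 0.0286.

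The genes, lists and tests were chosen with earlier results of these data known. Genes were named where they passed by genotype or in the difference between ages, led their subfamily, or were among the 10 largest changes with age in each direction. Genes outside this rule (Sult1d1, Sult1b1, Sult1e1, Sult6b1, Gsto1, Gstm6, Ugt2b5) were chosen after their values were seen. The study's own list of changed genes holds some of these sulfotransferases and was drawn from the same libraries. No source says whether libraries came from single animals, so p-values measure the spread between these libraries. Replicate numbers were not taken to pair libraries, since not every same-numbered pair deviated together. Promoters come from RefSeq (GRCm38.p6) and 50-base stretches from GENCODE vM21 transcripts, since no protein sequences were used here. One regulator and one promoter motif are not reported here.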

Additional observations from a re-analysis of the deposited data

Results flagged for a closer look

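The 27 named genes and the 3 family sums gave 90 sets of values in the 3 groups of 4 libraries. For independent sets, 4.5 would be expected at 1 in 20. The sets share libraries and the sums hold these genes, so 4.5 does not measure chance here. In 13 of the 90 sets a library stood apart from the others by Dixon's criterion. Replicate 1 of the 2-week Stab1-/- group stood above the rest in 5 of them: Mgst1 (2377 RPKM, next 1992), Sult2a1 (2328, next 1537), Gsta3 (1024, next 812), Ugt2b36 (798, next 510.1) and Gstz1 (609, next 463). Replicate 3 of the 2-week wildtype group stood below the rest for Gstm3 (8.77 RPKM, next 14.5), Mgst3 (17.2, next 20.3) and Sult2a2 (119, next 146). Single libraries of the 2-week Stab1-/- group stood apart for Mgst2 (2.62 RPKM in replicate 3, next 0.638), Ugt1a7c (0.316 in replicate 2, next 0.0314) and Sult1a1 (267 in replicate 3, the lowest, next 274). At E17.5, wildtype replicate 1 was highest for Ugt2a3 (0.878 RPKM, next 0.362), and wildtype replicate 2 held the only read of Sult2a3 (0.112 RPKM, the others at 0).

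The genotype effect at E17.5 minus that at 2 weeks passed edgeR's quasi-likelihood test for 4 genes. It was 1.23 on the log2 scale for Gstm2, 1.38 for Gstm3 and 2.02 for Ugt1a9. For Sult2a2 the fitted value was -3.15, which depends on how 1, 0 and 1 reads in the Stab1-/- libraries at E17.5 are smoothed and is no bound.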

How the results depend on the processing

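At 2 weeks, DESeq2 called 8 conjugating enzymes in place of 5, adding Sult1e1, Sult2a1 and Sult2a5, and leaving out 1 library gave 4 to 7. At E17.5, where edgeR called 0, DESeq2 called 3, GC-content offsets 1 and the fit of all 15 libraries 2, and leaving out 1 library gave 0 to 1. For the difference between ages, DESeq2 called 9 in place of 4, and leaving out 1 library gave 0 to 6. Without both E17.5 libraries that carried transcripts of another organ it was 0. The calls between ages were 34 to 37 in wildtype and 35 to 38 in Stab1-/- livers when 1 library was left out. Over all genes, DESeq2 called 861 in place of 340 at 2 weeks, 235 in place of 49 at E17.5 and 1058 in place of 251 in the difference between ages. The change of Gsto1 with age in wildtype livers turned to -0.12 with library totals (adjusted p = 0.219, edgeR). The cause of these shifts was not tested.

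When a replicate block was added, 10 genes were called at 2 weeks and 10 in the difference between ages (7 with the block and GC-content offsets). At 2 weeks the block added Sult2a1, Sult2a5, Ugt2a3, Ugt2b36 and Ugt2b5. Over all genes the block called 1181 at 2 weeks and 1088 in the difference. Same-numbered libraries correlated by 0.0219 to 0.202 in their deviations at 2 weeks (mean 0.139, against -0.0468 for other pairs), with 3 of 4 pairs over 0.1 and 2 of 4 best matched to their own number, and by -0.181 to -0.000483 at E17.5, so the numbers were not taken to pair libraries.

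At this depth 17 members (7 UGT, 6 SULT and 4 GST genes) were tested in no comparison, 5 had at most 3 reads in every library and 4 had 0 reads throughout E17.5. Low depth and lack of expression cannot be told apart for these genes.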

Other observations

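Conjugating enzymes outside the 3 families were counted from a list of 11 genes that attach acetyl, methyl, glycine or taurine groups. At 2 weeks 2 of 10 tested rose in Stab1-/- livers and none fell, whereas 0.936% of all genes rose and 1.74% fell. Baat, which couples bile acids to taurine and glycine, had 98.0, 75.3, 60.6 and 84.2 RPKM in Stab1-/- against 40.6, 47.5, 26.6 and 20.7 RPKM in wildtype livers, a log2 change of 1.15 ± 0.22 (adjusted p = 0.0188, edgeR). Hnmt, which methylates histamine, had 10.7, 7.04, 9.58 and 8.26 RPKM against 5.14, 4.76, 4.61 and 2.55 RPKM, a log2 change of 0.97 ± 0.19 (adjusted p = 0.0244, edgeR). Both genes were apart between the genotypes in all 8 libraries. With age, 9 of 9 tested genes of this list rose in wildtype and 10 of 10 in Stab1-/- livers, against 34.9% and 35.7% of all genes.

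Ephx1, the microsomal epoxide hydrolase, and Hmox1, which breaks down haem, differed between the ages in their genotype effect, by 0.997 ± 0.24 (adjusted p = 0.0461) and 0.63 ± 0.15 (adjusted p = 0.0468) on the log2 scale in edgeR. Both are on the list of NRF2 targets outside the families, of which these 2 of 10 tested passed in this difference, against 1.81% of all genes. Neither passed within an age. Their means were 28.7 and 29.7 RPKM in Stab1-/- against 45.4 and 34.9 RPKM in wildtype livers at 2 weeks, and 11.4 and 113 against 9.74 and 93.5 RPKM at E17.5. Slco1a4 was listed at 0 in all 3 Stab1-/- libraries at E17.5. None of the 11 transporters of conjugates tested at that age passed by genotype, so no loss can be read from these zeros alone. In the difference between ages, 1 of 13 transporters tested passed, as lower, against 0.799% of all genes.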
